A study of Mus musculus with 27 samples.

Results

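The genes described here encode the TGF-beta and PDGF ligands and receptors and were measured in mouse liver by RNA sequencing. They are the ligands Tgfb1, Tgfb2, Tgfb3, Pdgfa and Pdgfb, the receptors Tgfbr1, Tgfbr2, Pdgfra and Pdgfrb, and Tgfbi, which encodes a matrix protein induced by TGF-beta and is neither a ligand nor a receptor. They were chosen by name, and the 10 genes were found among the 55414 genes of the count table by their Ensembl identifiers. All 10 averaged 10 counts or more over the libraries and were among the 14114 genes tested. Livers came from 27 female Balb/c mice in 8 groups. The control group (n = 4) received intraperitoneal olive oil and tail vein PBS, and 3 further groups without CCl4 received 4MU (n = 3), siLuc-LNP (n = 3) or siHAS2-LNP (n = 3). The other 4 groups received intraperitoneal CCl4, a toxin that causes liver injury and fibrosis, either alone (CCl4, n = 2) or with 4MU (CCl4 + 4MU, n = 4), siLuc-LNP (CCl4 + siLuc-LNP, n = 4) or siHAS2-LNP (CCl4 + siHAS2-LNP, n = 4). 4MU (4-methylumbelliferone) is an oral inhibitor of hyaluronan synthesis, siHAS2-LNP is a lipid nanoparticle carrying an siRNA against hyaluronan synthase 2, and siLuc-LNP carries an siRNA against luciferase, which mice do not carry. All mice without CCl4 received olive oil by the same route, 4MU was given by gavage and the particles by tail vein. The labels of the CCl4 mice name no tail vein injection.

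TGF-beta is secreted in a latent complex, bound to latent TGF-beta binding proteins in the matrix, and is released by integrins, proteases or thrombospondin. Active TGF-beta binds the type II receptor (Tgfbr2), which recruits and phosphorylates the type I receptor (Tgfbr1), and the pair passes the signal to SMAD proteins that enter the nucleus. PDGF chains form dimers that bind the receptor tyrosine kinases PDGFR-alpha and PDGFR-beta. In liver, TGF-beta is known as an inducer of collagen synthesis and PDGF as a mitogen of hepatic stellate cells, the main source of the myofibroblasts of a scar.

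For the 3 genes of the TGF-beta ligand and receptor families that are described most closely below, the 250 bases before the RefSeq start site (build GRCm38.p6) show how differently their promoters are built. The capitals mark TATAAA (the TATA box), CAGAC (the SMAD box) and GGGCGG (the GC box), read on both strands. The AP-1 site (TGACTCA) was also searched. The windows are chr7:25686752-25687001 (plus strand) for Tgfb1, chr1:186705990-186706239 (minus strand) for Tgfb2 and chr9:116175364-116175613 (minus strand) for Tgfbr2, each written in the direction of transcription.
Tgfb1: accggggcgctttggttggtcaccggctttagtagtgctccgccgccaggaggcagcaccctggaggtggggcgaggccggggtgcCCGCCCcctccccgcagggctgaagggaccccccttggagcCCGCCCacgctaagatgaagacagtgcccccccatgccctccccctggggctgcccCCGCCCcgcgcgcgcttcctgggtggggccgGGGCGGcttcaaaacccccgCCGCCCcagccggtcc
Tgfb2: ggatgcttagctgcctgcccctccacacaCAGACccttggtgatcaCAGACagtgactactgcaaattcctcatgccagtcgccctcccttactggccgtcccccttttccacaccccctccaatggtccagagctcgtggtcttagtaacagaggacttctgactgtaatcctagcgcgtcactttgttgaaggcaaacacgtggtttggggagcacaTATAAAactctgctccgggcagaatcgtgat
Tgfbr2: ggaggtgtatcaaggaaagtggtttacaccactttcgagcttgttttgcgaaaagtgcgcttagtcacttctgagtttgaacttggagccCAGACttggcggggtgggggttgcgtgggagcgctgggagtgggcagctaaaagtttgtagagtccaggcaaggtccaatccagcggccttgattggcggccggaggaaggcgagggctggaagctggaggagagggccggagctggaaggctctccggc
The Tgfb1 window held 5 GC boxes and none of the other letters searched, whereas the Tgfb2 window held no GC box, a TATA box beginning at -31 from the start and 2 SMAD boxes. The Tgfbr2 window held 1 SMAD box, at -160. RefSeq gave 9 such windows for 7 of the 10 genes, the others being Tgfbr1 and Pdgfa with 2 windows each, Tgfbi and Pdgfra. Of these 9 windows, 1 held a TATA box, 5 held a SMAD box, 5 held a GC box and 0 held an AP-1 site. Among all 32851 RefSeq windows of the same length, the TATA box was in 12.4%, the SMAD box in 42.2%, the GC box in 32.7% and the AP-1 site in 4.46%. A match describes the letters only.

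The total count per library ranged from 7044386 to 29425937. The shallowest was CCl4 + siHAS2-LNP mouse 4, in which a limit of 3 counts corresponds to 0.426 CPM, the count scaled to a common library size. The targeted gene, Has2, had at most 2 counts in any of the 27 libraries, so it could not check the siHAS2-LNP labels. CCl4 mouse 2 stood apart from CCl4 mouse 1: its TMM factor, which scales a library for its composition, was 1.32, the highest of all. The summed level of 6 hepatocyte markers was 70014 to 123536 CPM in the CCl4 mice, against 165326 to 199947 CPM in control mice. No cell type marker was at 0 in all mice of a group. Because whole liver was sequenced, fewer cells of a type and less RNA per cell cannot be told apart. All p-values measure the spread between these mice.

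Levels of different genes were compared per length, as CPM per kilobase of exon (RPKM). In control livers Tgfbi had the highest level of the 10, at 8.63 ± 1.26 RPKM (SD, n = 4). The TGF-beta receptors followed, with Tgfbr1 at 2.75 ± 0.507 and Tgfbr2 at 2.07 ± 0.589 RPKM. Tgfb1 had 1.38 ± 0.313 RPKM, Pdgfa 1.12 ± 0.204 and Pdgfrb 1.07 ± 0.245, and these neighbours did not differ beyond their spread. Pdgfra was lower at 0.457 ± 0.0969 RPKM, followed by Pdgfb at 0.232 ± 0.0725. Tgfb3 and Tgfb2 were lowest, at 0.0745 ± 0.0329 and 0.0326 ± 0.0157 RPKM. Tgfb2 had 2 to 42 counts and Tgfb3 4 to 103 counts per library over all mice, so counting error limits both. With the length of the canonical transcript in place of all exons of a gene, Tgfb1 rose to the second place with 3.16 RPKM and Pdgfa to the fourth with 2.79 RPKM, while Tgfbi stayed first and Tgfb3 and Tgfb2 last.

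**Figure D1:**
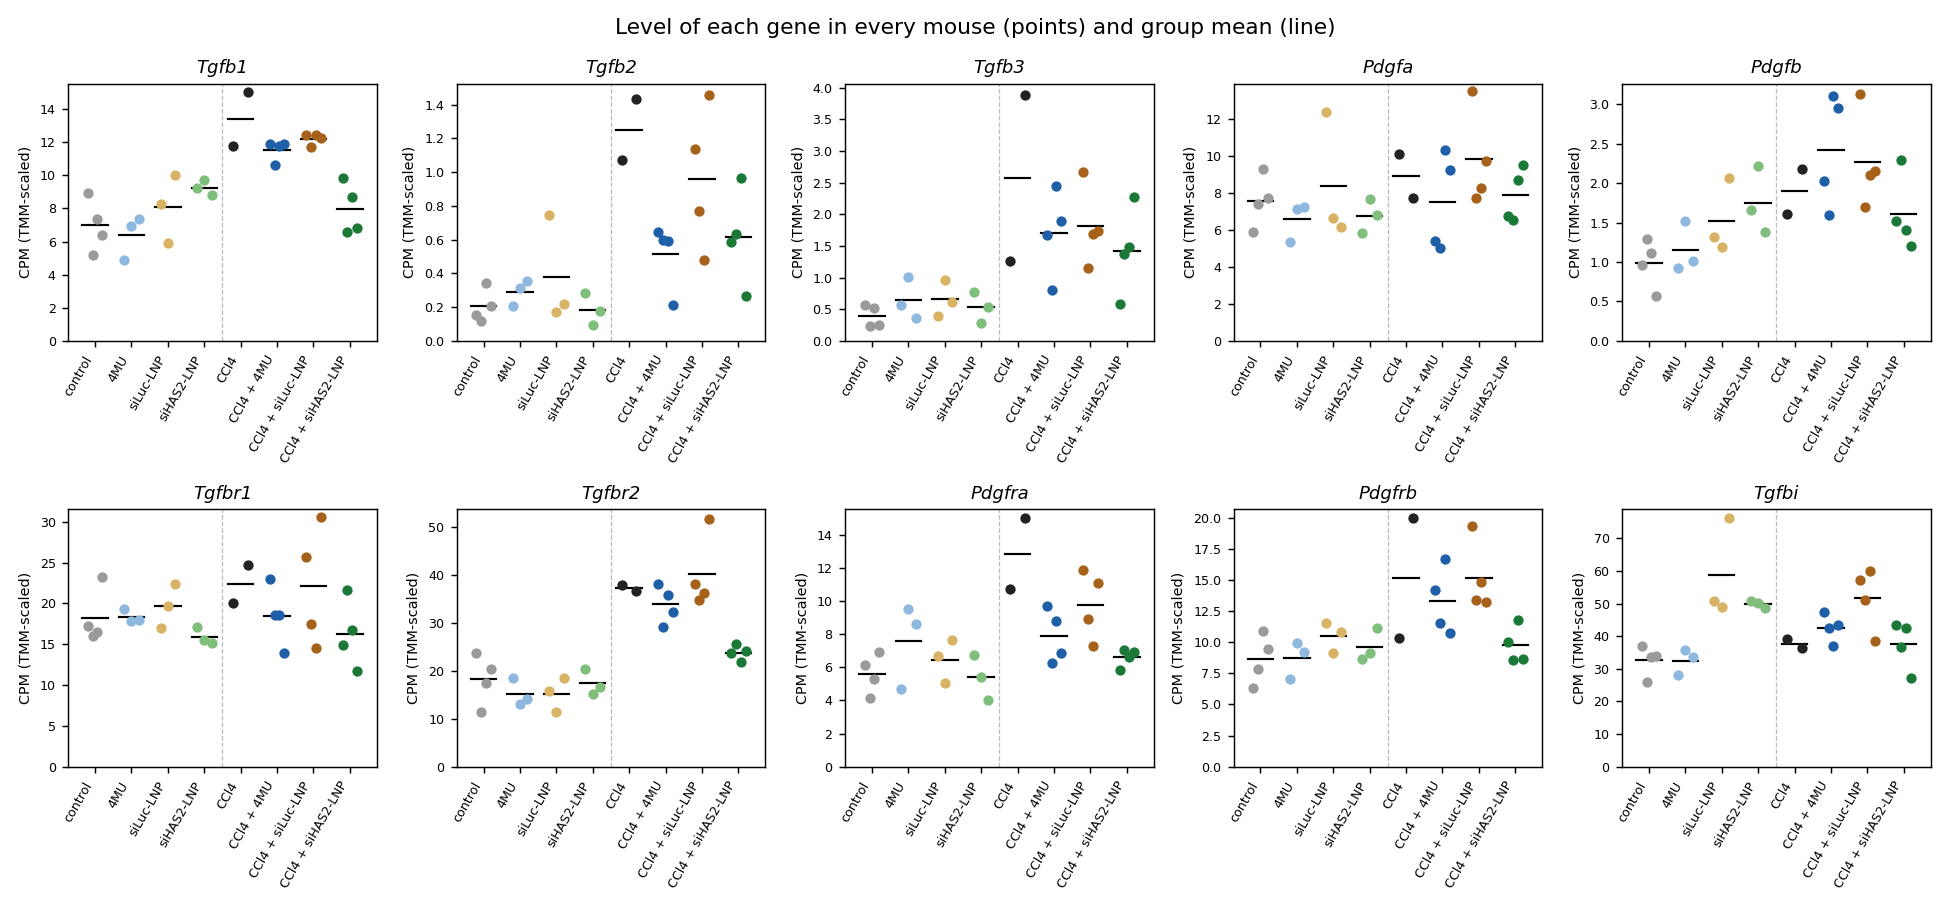
Level of each of the 10 genes in CPM (linear axis from 0, scaled by TMM) in every mouse (points) of the 8 groups, with the group mean as a line; groups without CCl4 are left of the dashed line. Tgfbr2 stood at 29.2 CPM or more in all mice given CCl4 alone, with 4MU or with siLuc-LNP, and at 21.8 to 25.5 CPM in the CCl4 + siHAS2-LNP mice.

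The first comparison asked how CCl4 changed these genes. Averaged over the 4 treatments, CCl4 raised 7 of the 10 genes and lowered none, against 51.9% of all 14114 tested genes that passed the same threshold in either direction. The genes that rose were all 3 TGF-beta ligands, Tgfbr2, Pdgfb and both PDGF receptors. Tgfbr1, Pdgfa and Tgfbi did not pass the test. The median log2 fold change over the 10 genes was 0.54, beside -0.02 over all genes tested.

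Among the ligands, Tgfb3 and Tgfb2 had the largest fold changes from the lowest levels. Tgfb3 had 0.560, 0.236, 0.512 and 0.245 CPM in the control mice and 1.27 and 3.88 CPM in the CCl4 mice. In the other groups without CCl4 it stayed between 0.283 and 1.02 CPM, and in the treated CCl4 groups it ranged from 0.587 to 2.66 CPM. Both CCl4 mice were above every control mouse, but the pair differed widely from each other. CCl4 and control mice did not overlap for 50.6% of all genes tested. Averaged over the treatments Tgfb3 was 3.29-fold higher with CCl4 (log2 fold change 1.72, SE 0.260, adjusted p = 6.22e-06). The level of 12 of 14 mice given CCl4 was above that of all 13 mice without it, and such a separation was not counted over all genes.

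Tgfb2 had 0.153, 0.118, 0.342 and 0.204 CPM in the control mice and 1.07 and 1.43 CPM in the CCl4 mice. These groups did not overlap, nor did they for 50.6% of all genes tested. It was at 0.645, 0.598, 0.591 and 0.214 CPM in the CCl4 + 4MU mice. CCl4 + siLuc-LNP mice had 1.14, 0.772, 0.480 and 1.46 CPM, and CCl4 + siHAS2-LNP mice 0.587, 0.635, 0.963 and 0.267 CPM. The 2 CCl4 mice were thus above every mouse of CCl4 + 4MU and of CCl4 + siHAS2-LNP and within the range of CCl4 + siLuc-LNP. Averaged over the treatments Tgfb2 was 3.07-fold higher with CCl4 (log2 fold change 1.62, SE 0.267, adjusted p = 1.91e-05). In mice without CCl4 the one high value was 0.744 CPM in siLuc-LNP mouse 1, and the rest were at 0.355 CPM or less.

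Tgfb1, the main TGF-beta ligand by level, changed less. Control mice had 8.96, 5.19, 7.39 and 6.42 CPM, and the CCl4 mice had 11.8 and 15.0 CPM. The CCl4 + 4MU mice lay close together at 11.9, 10.6, 11.8 and 11.9 CPM, as did the CCl4 + siLuc-LNP mice at 12.5, 11.7, 12.4 and 12.3 CPM. The CCl4 + siHAS2-LNP mice had 9.86, 6.59, 8.71 and 6.81 CPM and overlapped with the siHAS2-LNP mice without CCl4, which had 9.21, 9.72 and 8.79 CPM. The mice of the other 3 CCl4 groups were all above 10.02 CPM, the highest value without CCl4, and all 4 CCl4 + siHAS2-LNP mice were below it. The averaged effect was 1.46-fold (log2 fold change 0.55, SE 0.0971, adjusted p = 4.85e-05).

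Pdgfb, which encodes the B chain of PDGF, was at 0.967, 1.30, 1.11 and 0.572 CPM in control mice and at 1.61 and 2.19 CPM in CCl4 mice. The averaged effect was 1.54-fold (log2 fold change 0.62, SE 0.166, adjusted p = 0.00311). Within treatments the log2 fold change of Pdgfb was 0.96 in untreated mice and 1.06 in the 4MU mice. It was 0.56 in the siLuc-LNP mice and -0.10 in the siHAS2-LNP mice, and in neither of these did it pass. Pdgfa, which encodes the A chain, had a median of 8.50 CPM over the 14 mice given CCl4 (5.04 to 13.5) and 7.15 CPM over the 13 others (5.33 to 12.4). These ranges lay almost on each other, and the averaged log2 fold change was 0.21 (95% interval -0.07 to 0.50, adjusted p = 0.196).

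Of the receptors, Tgfbr2 separated the mice most clearly. Control mice had 23.6, 11.4, 17.4 and 20.3 CPM and the CCl4 mice 37.9 and 36.7 CPM. CCl4 + 4MU mice had 38.0, 29.2, 35.9 and 32.3 CPM, and CCl4 + siLuc-LNP mice 38.1, 34.8, 36.2 and 51.6 CPM. The CCl4 + siHAS2-LNP mice were at 23.7, 25.5, 21.8 and 24.0 CPM, below every other mouse given CCl4. In all, 13 of 14 mice given CCl4 were above all 13 without it, a separation that was not counted over all genes. The exception was CCl4 + siHAS2-LNP mouse 3. The averaged effect was 2.01-fold (log2 fold change 1.01, SE 0.102, adjusted p = 1.14e-08). Tgfbr1, the partner of Tgfbr2 in the receptor complex, had a median of 18.6 CPM with CCl4 (11.8 to 30.6) and 17.2 CPM without it (15.2 to 23.2). Its averaged log2 fold change was 0.13 (95% interval -0.10 to 0.36, adjusted p = 0.348).

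Pdgfra had 6.16, 4.13, 5.30 and 6.91 CPM in control mice and 10.7 and 15.0 CPM in CCl4 mice. Pdgfrb had 6.31, 7.85, 10.9 and 9.45 CPM in control mice and 10.4 and 20.0 CPM in CCl4 mice, so CCl4 mouse 1 lay within the control range for Pdgfrb and above it for Pdgfra. Averaged over the treatments Pdgfra was 1.44-fold (log2 fold change 0.53, SE 0.124, adjusted p = 0.00101) and Pdgfrb 1.41-fold higher with CCl4 (log2 fold change 0.50, SE 0.112, adjusted p = 0.000711). Tgfbi had a median of 42.5 CPM with CCl4 (27.2 to 59.9) and 37.0 CPM without it (25.9 to 76.4), and its averaged log2 fold change was 0.00 with a 95% interval of -0.19 to 0.19 (adjusted p = 0.986). This average was taken over estimates of both signs, none of which passed: 0.39 in the 4MU mice (95% interval 0.02 to 0.76, adjusted p = 0.113), 0.21 in untreated mice, -0.19 in the siLuc-LNP mice and -0.40 in the siHAS2-LNP mice (-0.77 to -0.04, adjusted p = 0.133).

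The same question was asked within each treatment. In untreated mice, CCl4 against control, 7 of 10 genes rose and 0 fell, with 34.0% of all tested genes called. These were Tgfb3 (log2 fold change 2.72, SE 0.538), Tgfb2 (2.55, SE 0.539), Pdgfra (1.19, SE 0.261), Tgfbr2 (1.03, SE 0.214), Pdgfb (0.96, SE 0.359), Tgfb1 (0.94, SE 0.206) and Pdgfrb (0.82, SE 0.239), with adjusted p between 0.000414 and 0.0415. Without CCl4 mouse 2 only 3 of the 7 passed. Tgfb3 was then at 1.70 (adjusted p = 0.0852), Pdgfra at 0.95 (adjusted p = 0.0554), Pdgfb at 0.73 (adjusted p = 0.318) and Pdgfrb at 0.28 (adjusted p = 0.549), and the number of all genes called fell from 4805 to 2154. Pdgfb also missed the threshold without control mouse 1 (adjusted p = 0.0658) or mouse 4 (adjusted p = 0.115), with no low-count filter (adjusted p = 0.0962), when only the compared groups entered the fit (adjusted p = 0.0817) and with the replicate number as a block (adjusted p = 0.0710).

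Within the 4MU mice CCl4 raised 5 of 10 genes and lowered 0, with 23.7% of all genes called. Tgfb3 (log2 fold change 1.38, SE 0.499), Tgfbr2 (1.16, SE 0.201), Pdgfb (1.06, SE 0.324), Tgfb1 (0.86, SE 0.191) and Pdgfrb (0.60, SE 0.219) passed, whereas Pdgfra was at 0.05 (SE 0.239). Within the siLuc-LNP mice 4 of 10 rose and 0 fell, with 24.2% of all genes called. These were Tgfb3 (1.45, SE 0.507), Tgfbr2 (1.40, SE 0.203), Tgfb2 (1.39, SE 0.499) and Tgfb1 (0.59, SE 0.189). Within the siHAS2-LNP mice only Tgfb2 passed, at 1.76 (SE 0.563, adjusted p = 0.0396), with 12.8% of all genes called. Tgfbr2 was there at 0.45 (95% interval 0.04 to 0.86), Tgfb3 at 1.33 (0.24 to 2.42) and Tgfb1 at -0.20 (-0.59 to 0.19). In the same mice Pdgfra was at 0.28, Pdgfrb at 0.03 and Pdgfb at -0.10. Tgfb2 had 2 to 7 counts in the siHAS2-LNP mice and 2 to 24 in the CCl4 + siHAS2-LNP mice, and these groups overlapped. Its call was lost in 5 of 7 fits with a mouse left out, as were those of Tgfb3 and Pdgfrb within 4MU. Pdgfb within 4MU and Tgfb2 and Tgfb3 within siLuc-LNP lost theirs in 4 of 7, and Tgfb1 within siLuc-LNP in 2. The counts within treatments moved when single mice were left out, from 2 to 5 genes for 4MU, 2 to 5 for siLuc-LNP and 0 to 2 for siHAS2-LNP, whereas the averaged effect gave 7 or 8 genes without any 1 of the 27 mice.

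**Figure D2:**
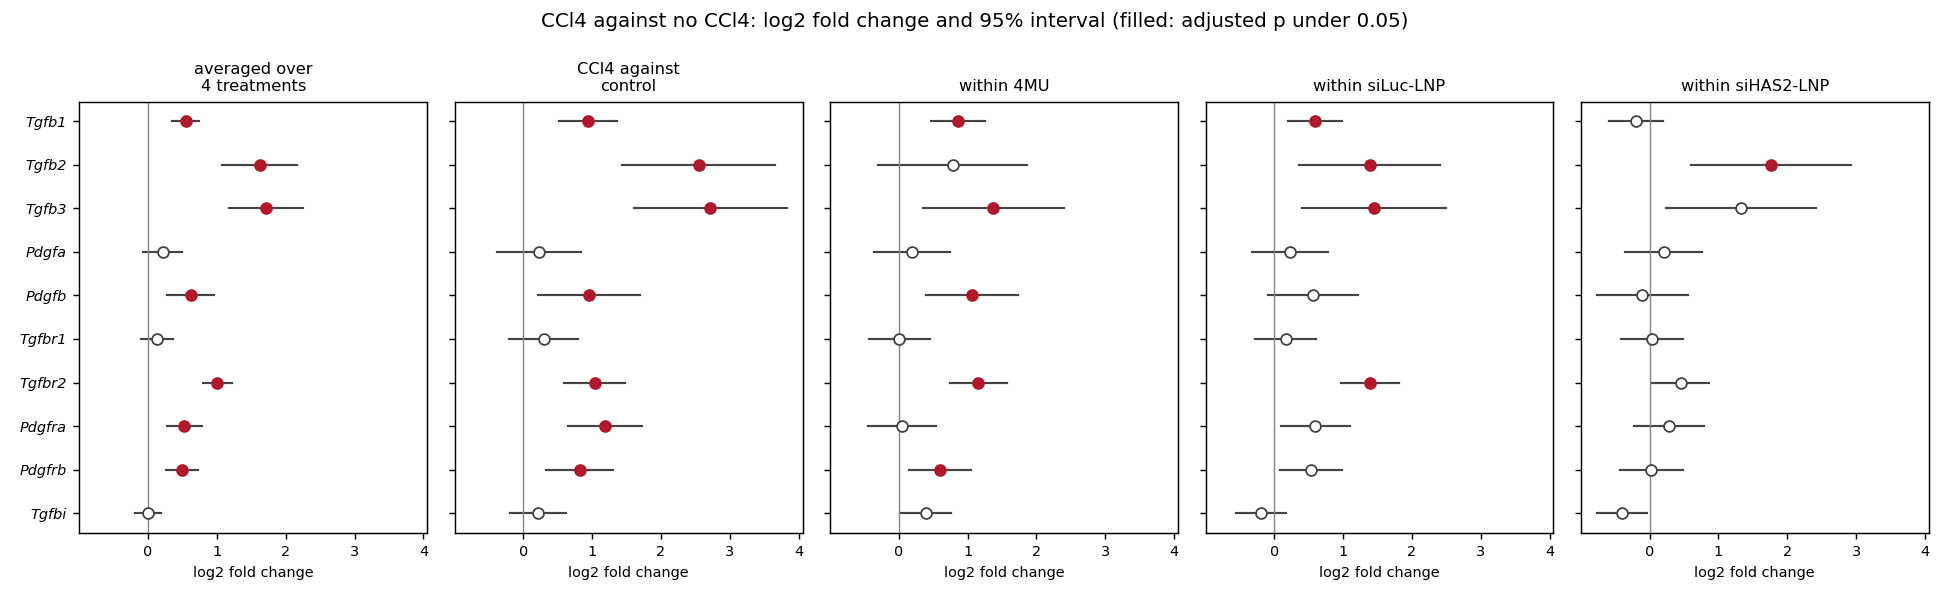
Log2 fold change of CCl4 against no CCl4 (x axis) for each gene, averaged over the 4 treatments and within each of them, with 95% intervals as lines and filled points for an adjusted p under 0.05. The averaged panel has 7 filled points and the siHAS2-LNP panel 1.

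Whether a treatment changed the CCl4 effect was tested as an interaction. For 4MU, 0 of 10 genes passed in edgeR, with 5.67% of all genes called, 2 genes had an unadjusted p under 0.05 and DESeq2 called 1. Those 2 were Pdgfra (log2 difference of the effects -1.14, SE 0.355, adjusted p = 0.0552) and Tgfb2 (-1.76, SE 0.769, adjusted p = 0.151). Pdgfra passed without 4MU mouse 1 (-1.40, adjusted p = 0.0258) or CCl4 mouse 1 (-1.37, adjusted p = 0.0390), with no low-count filter (-1.13, adjusted p = 0.0298) and in DESeq2 (-1.16, adjusted p = 0.0265). Pdgfra had 4.71, 9.53 and 8.61 CPM in the 4MU mice without CCl4, so mouse 1 of that group lay far below the other 2. For siHAS2-LNP against siLuc-LNP, 0 of 10 genes passed in edgeR, with 0.0354% of all genes called, 2 had an unadjusted p under 0.05 and DESeq2 called 0. These were Tgfbr2 (-0.95, SE 0.279, adjusted p = 0.195) and Tgfb1 (-0.79, SE 0.266, adjusted p = 0.244). With no low-count filter Tgfbr2 passed (-0.99, adjusted p = 0.0399).

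Ratios of 2 genes within a library do not depend on how the library is scaled, and 5 were tested with exact permutation of the CCl4 labels within treatments. The ratio of Tgfbr2 to Tgfbr1 was 1.90-fold higher with CCl4 (log2 difference 0.93, 2-sided exact permutation p = 3.11e-06, adjusted over 5 ratios 1.55e-05). Per length, Tgfbr2 was at 0.73 of the level of Tgfbr1 in control mice and at 1.26 of it in CCl4 mice (geometric means). The log2 ratio was -1.19 to 0.05 in the 13 mice without CCl4 and -0.17 to 0.90 in the 14 with it.

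The balance of the TGF-beta ligands moved as well. Tgfb2 to Tgfb1 was 2.02-fold higher with CCl4 (adjusted exact permutation p = 0.00420) and Tgfb3 to Tgfb1 2.17-fold higher (adjusted exact permutation p = 0.00210). Within the 4MU mice the Tgfb2 to Tgfb1 log2 ratio nevertheless differed by -0.20. Tgfb1 remained the main ligand per length: it made up 92.9% ± 1.70 (SD, n = 4) of the summed RPKM of the 3 ligands in control mice and 80.0% ± 6.79 (SD, n = 2) in CCl4 mice. Tgfb3 made up 4.87% ± 1.23 and 13.9% ± 7.11 and Tgfb2 2.21% ± 0.919 and 6.04% ± 0.314 in the same groups. These shares depend on the length used, here all exons of a gene. With canonical lengths, CCl4 mice had 6.05 RPKM of Tgfb1, 0.620 of Tgfb3 and 0.239 of Tgfb2, which gives Tgfb1 a larger share. The PDGF ratios did not pass. Pdgfb to Pdgfa differed by 0.40 on the log2 scale (adjusted exact permutation p = 0.0782) and Pdgfra to Pdgfrb by 0.07 (adjusted exact permutation p = 0.629).

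**Figure D3:**
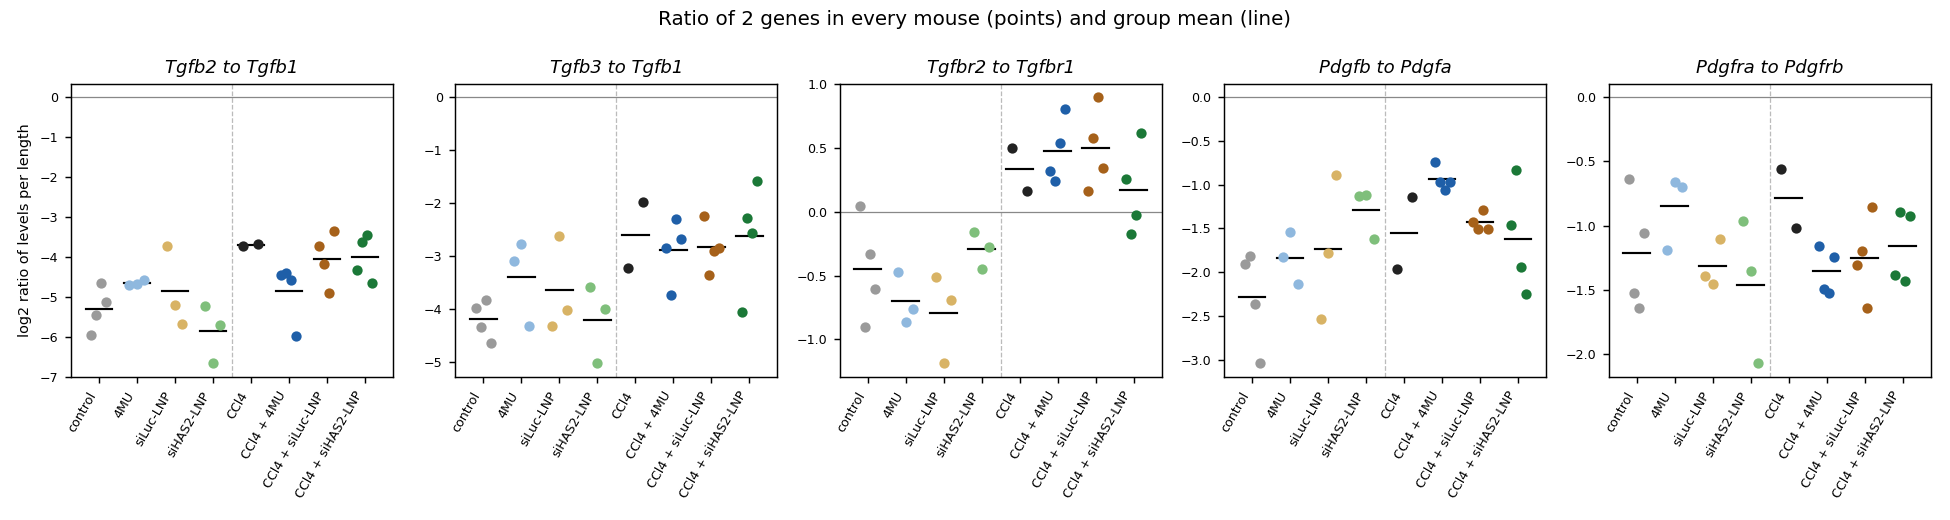
Log2 ratio of the levels per length of 2 genes (y axis, a separate scale for each panel) in every mouse (points) and as group mean (line), with groups without CCl4 left of the dashed line. The Tgfbr2 to Tgfbr1 ratio lay between -0.17 and 0.90 in mice given CCl4 and between -1.19 and 0.05 in the others.

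The next comparisons asked whether a treatment changed the genes in mice given CCl4. All 3 treated groups were compared with the same 2 CCl4 mice, so these comparisons share their reference. In CCl4 + siHAS2-LNP against CCl4, 3 of 10 genes fell and 0 rose, with 14.4% of all genes called. Pdgfra fell by 0.97 on the log2 scale (SE 0.263, adjusted p = 0.0170), Tgfb1 by 0.73 (SE 0.207, adjusted p = 0.0200) and Tgfbr2 by 0.65 (SE 0.216, adjusted p = 0.0445). The groups did not overlap for 4 of the 10 genes, these 3 and Tgfb2, nor for 37.1% of all genes tested. Pdgfra was at 5.83, 7.03, 6.62 and 6.94 CPM in the CCl4 + siHAS2-LNP mice, of which 5.83 and 6.62 CPM lay within the control range and the other values just above it. The values that did not pass were -0.93 for Tgfb2 (95% interval -1.96 to 0.09), -0.94 for Tgfb3 (-1.99 to 0.12), -0.63 for Pdgfrb (-1.13 to -0.14), -0.45 for Tgfbr1, -0.22 for Pdgfb, -0.19 for Pdgfa and 0.00 for Tgfbi. The median of the 10 genes was -0.64, beside 0.02 over all genes.

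Markers of several lists passed in the same comparison, beside 14.4% of all genes called, and for some lists the share was no higher than that. Of 6 Kupffer cell markers 5 fell, with a summed level of 89.8 to 124 CPM in the CCl4 + siHAS2-LNP mice and 244 to 270 CPM in the CCl4 mice. Of 7 endothelial markers 2 fell, with 62.1 to 80.3 and 106 to 119 CPM. In the other lists 1 of 10 stellate cell markers, 2 of 9 of portal fibroblasts and mesothelium, 1 of 9 of infiltrating monocytes and macrophages, 1 of 3 tested platelet markers and 1 of 4 tested bile duct markers fell, 1 of 6 hepatocyte markers rose and 0 of 5 lymphocyte markers passed. Their part in the result was not tested.

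The 3 calls rested on the few CCl4 mice. Without CCl4 mouse 2, 0 of 10 genes passed and 108 of all 14114 genes were called, against 2038 with it. Pdgfra was then at -0.73 (adjusted p = 0.277), Tgfb1 at -0.58 (adjusted p = 0.277) and Tgfbr2 at -0.70 (adjusted p = 0.206). Tgfb1 also missed the threshold when only the compared groups entered the fit (-0.75, adjusted p = 0.0515). Tgfbr2 also missed it without CCl4 mouse 1 (adjusted p = 0.127) and without CCl4 + siHAS2-LNP mouse 1 (0.0702), mouse 2 (0.0504), mouse 3 (0.0947) or mouse 4 (0.0689 as adjusted p), while its log2 fold change stayed between -0.70 and -0.62.

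Against siLuc-LNP, which carries the same kind of particle with another siRNA and does not use the 2 CCl4 mice, CCl4 + siHAS2-LNP mice had a lower level of 1 of 10 genes, with 1.09% of all genes called. This was Tgfbr2, which fell by 0.76 on the log2 scale (SE 0.181, adjusted p = 0.0424), and all 4 mice of CCl4 + siHAS2-LNP were below all 4 of CCl4 + siLuc-LNP (these groups did not overlap for 7.67% of all genes tested). It did not pass when only the compared groups entered the fit (adjusted p = 0.146), nor without CCl4 + siHAS2-LNP mouse 1 (0.0609), mouse 2 (0.0644), mouse 3 (0.164) or mouse 4 (0.0898), nor without CCl4 + siLuc-LNP mouse 1 (0.0952) or mouse 4 (0.112 as adjusted p). Its log2 fold change was between -0.84 and -0.64 throughout. Tgfb1 was at -0.60 (95% interval -0.96 to -0.24, adjusted p = 0.0862), Pdgfrb at -0.63 (-1.05 to -0.22, adjusted p = 0.115) and Pdgfra at -0.57 (-1.04 to -0.11, adjusted p = 0.186). Tgfbi was at -0.46 (adjusted p = 0.152), Tgfb2 at -0.57, Pdgfb at -0.47, Tgfbr1 at -0.43, Tgfb3 at -0.42 and Pdgfa at -0.33, so all 10 estimates were below 0, with a median of -0.52 beside 0.00 over all genes. Marker levels moved beside them in some lists. The summed level of 7 endothelial markers was 62.1 to 80.3 CPM in CCl4 + siHAS2-LNP and 93.1 to 108 CPM in CCl4 + siLuc-LNP. That of 10 stellate cell markers was 142 to 255 and 256 to 406 CPM. Of the endothelial markers 0 of 7 and of the stellate cell markers 1 of 10 passed. For the other cell type lists the ranges of the summed level overlapped. Kupffer cell markers were at 89.8 to 124 and 113 to 195 CPM. Markers of infiltrating monocytes and macrophages were at 65.3 to 158 and 127 to 279 CPM. The part of the markers in the result was not tested.

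In CCl4 + 4MU against CCl4, 0 of 10 genes passed in edgeR, with 18.3% of all genes called, 2 had an unadjusted p under 0.05 and DESeq2 called 1. Pdgfra was at -0.70 (95% interval -1.24 to -0.17, adjusted p = 0.0608), with 9.68, 6.23, 8.80 and 6.87 CPM in the CCl4 + 4MU mice, all below both CCl4 mice. It passed without CCl4 mouse 1 (-0.94, adjusted p = 0.0487). Tgfb2 was at -1.30 (-2.32 to -0.28, adjusted p = 0.0671), and again no CCl4 + 4MU mouse reached a CCl4 mouse. These groups did not overlap for 44.4% of all genes tested. Tgfbr2 was at -0.14 (-0.59 to 0.31) and Tgfb1 at -0.22 (-0.64 to 0.21). The remaining values were -0.60 for Tgfb3, -0.28 for Tgfbr1, -0.24 for Pdgfa, -0.19 for Pdgfrb, 0.17 for Tgfbi and 0.35 for Pdgfb. In CCl4 + siLuc-LNP against CCl4, 0 of 10 genes passed in edgeR, with 0.248% of all genes called, 1 gene had an unadjusted p under 0.05 and DESeq2 called 0. That gene was Tgfbi, at 0.45 (95% interval 0.03 to 0.87, adjusted p = 0.312).

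**Figure D4:**
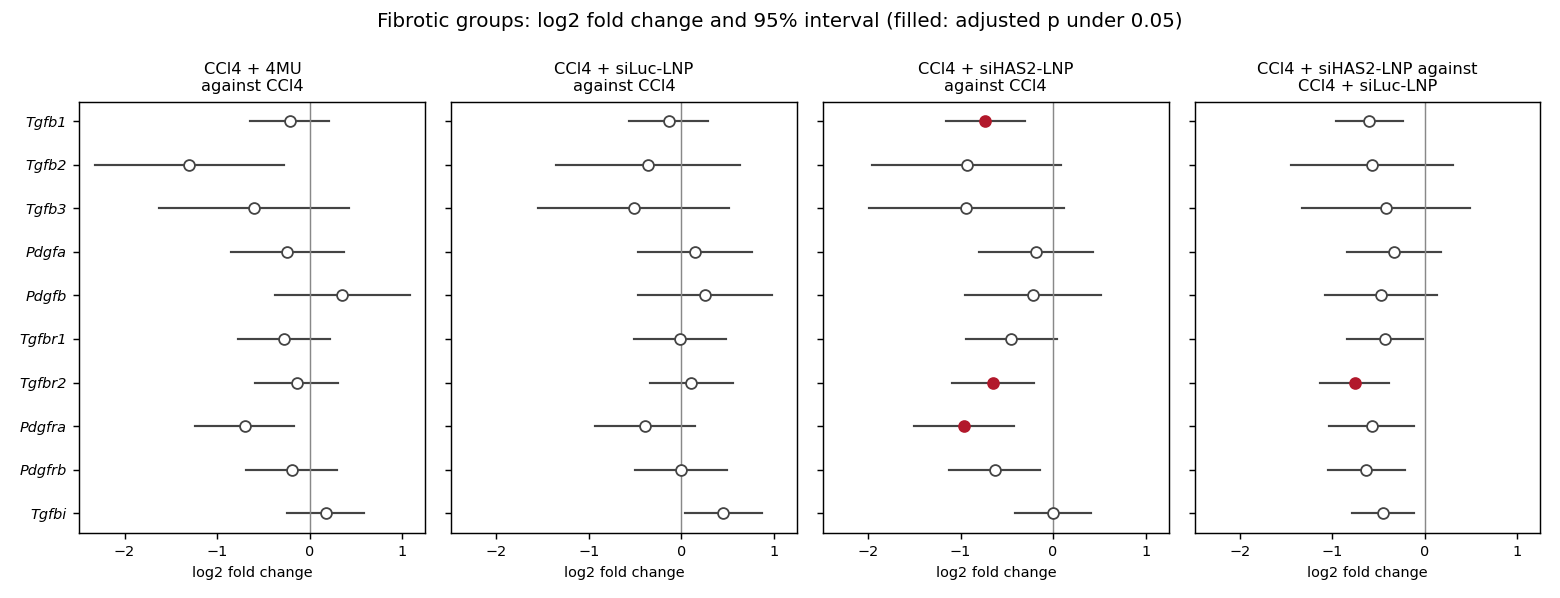
Log2 fold change (x axis) of each gene between groups given CCl4, with 95% intervals as lines and filled points for an adjusted p under 0.05; the first 3 panels share the 2 CCl4 mice. Filled points are Tgfb1, Tgfbr2 and Pdgfra for CCl4 + siHAS2-LNP against CCl4 and Tgfbr2 against CCl4 + siLuc-LNP.

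Without CCl4, 4MU and siLuc-LNP were compared with control, and siHAS2-LNP with siLuc-LNP only. In these comparisons 1 of the 10 genes passed, and siHAS2-LNP was not tested against control. In siLuc-LNP against control, 1 gene rose, with 0.213% of all genes called, and this was Tgfbi (log2 fold change 0.85, SE 0.175, adjusted p = 0.0344). Tgfbi had 37.0, 25.9, 33.5 and 34.1 CPM in control mice and 50.9, 49.1 and 76.4 CPM in siLuc-LNP mice. The siLuc-LNP and control groups did not overlap for Tgfbi, nor for 7.25% of all genes tested. The siHAS2-LNP mice had 50.8, 50.1 and 48.7 CPM of Tgfbi, and the 4MU mice had 28.1, 35.7 and 33.6 CPM. The call was lost without siLuc-LNP mouse 3 (0.62, adjusted p = 0.308), control mouse 2 (adjusted p = 0.175), mouse 3 (0.0748) or mouse 4 (0.0925 as adjusted p). The summed level of 9 markers of infiltrating monocytes and macrophages was 43.0 to 57.4 CPM in siLuc-LNP and 47.8 to 54.4 CPM in siHAS2-LNP mice, against 18.7 to 32.4 CPM in control and 12.0 to 27.8 CPM in 4MU mice, and its part in the level of Tgfbi was not tested. In 4MU against control 0 of 10 genes passed in edgeR, with 0.00709% of all genes called, 0 had an unadjusted p under 0.05 and DESeq2 called 0. The estimates ran from -0.26 for Tgfbr2 to 0.74 for Tgfb3. In siHAS2-LNP against siLuc-LNP 0 of 10 passed in edgeR, with 0.0425% of all genes called, 0 had an unadjusted p under 0.05 and DESeq2 called 0, and the estimates ran from -0.95 for Tgfb2 to 0.19 for Pdgfb.

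Ordered by group mean, Tgfb1 was highest in CCl4 (13.4 CPM), followed by CCl4 + siLuc-LNP (12.2) and CCl4 + 4MU (11.6 CPM), and these neighbours overlapped. The next group, siHAS2-LNP at 9.24 CPM, did not overlap with CCl4 + 4MU, and below it all neighbours overlapped down to 4MU at 6.37 CPM. Tgfbr2 was highest in CCl4 + siLuc-LNP (40.2 CPM), CCl4 (37.3) and CCl4 + 4MU (33.8 CPM), with a gap to CCl4 + siHAS2-LNP at 23.8 CPM. CCl4 + siHAS2-LNP in turn overlapped with control at 18.2 CPM. For Tgfb2, Tgfb3, Tgfbr1, Pdgfa, Pdgfb, Pdgfra and Pdgfrb every group overlapped with the next in order, and for Tgfbi the gap was between siHAS2-LNP (49.9 CPM) and CCl4 + 4MU (42.6 CPM).

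The wider pathway was read from lists of genes grouped by known function. All tested genes serve as background: 51.9% were called in the averaged CCl4 effect, 26.3% higher and 25.6% lower. Of the genes for latency and activation of TGF-beta, 7 of 10 tested rose with CCl4 on average and 0 fell, with a median log2 fold change of 0.39. Itgb8, a chain of an integrin that releases TGF-beta, was at 1.67 (SE 0.392) and Thbs1 (thrombospondin 1) at 1.36 (SE 0.314). Ltbp2 was at 1.64 (SE 0.235). It is listed for its family name only, and binding of TGF-beta was not measured. Of the genes that TGF-beta is known to induce or repress, 12 of 13 tested rose and 1 fell, with a median of 2.11. Timp1, an inhibitor of matrix proteases, was at 4.1 (SE 0.218), the collagen cross-linking enzyme Lox at 4.09 (SE 0.420) and Col1a1 at 4.06 (SE 0.287), while the transcriptional repressor Bhlhe40 fell by 0.71 (SE 0.216). Several of these genes also have other known regulators in injured tissue.

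Signalling genes between the receptor and its targets moved less and in both directions. Of the transducers 2 of 7 rose and 2 fell: Smad3 was at 0.34 and Tab1 at 0.33, and Zfyve9 at -0.37 and Tgfbrap1 at -0.32. Of the inhibitors 2 of 11 rose and 2 fell, Pmepa1 being at 0.57 and Tgif1 at 0.27, and the inhibitory Smad7 at -0.56 and the TGF-beta binding proteoglycan Dcn at -0.46. Of the accessory receptors Acvrl1 rose (0.28) and Tgfbr3 (betaglycan) fell (-0.31), out of 3 tested. Of the adaptors of PDGF receptors 2 of 11 rose (Src at 1.69 and Cbl at 0.29) and 3 fell (Plcg1 at -0.33, Sos1 at -0.29 and Pik3ca at -0.25). Of 4 other tested PDGF family genes and relatives, the ligand Pdgfd (0.67) and the protease Plat (2.99) rose and Vegfa fell (-0.65), and Pdgfc was at -0.15. The medians of these 5 lists were between -0.08 and 0.26, beside -0.02 over all genes, and 51.9% of all genes were called.

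In CCl4 + siHAS2-LNP against CCl4, with 14.4% of all genes called, 4 of 10 activation genes fell and 0 rose, among them Thbs1 (-2.58, SE 0.613), Ltbp2 (-1.58, SE 0.466) and Ltbp3 (-1.05, SE 0.266). Of the target genes 6 of 13 fell and 0 rose, among them Acta2 (-3.32, SE 0.857), Ccn2 (-1.88, SE 0.506) and Col1a1 (-1.81, SE 0.522), with a median of -1.35. In CCl4 + 4MU against CCl4, with 18.3% of all genes called, 2 activation genes fell (Thbs1 at -2.81, SE 0.609, and Itgav at -0.96, SE 0.241) and 3 target genes (among them Lox at -2.21, SE 0.664, and Timp1 at -1.52, SE 0.337). Without CCl4 mouse 2 neither list had a call in either comparison, with medians of the target genes of -0.89 and -0.53. This mouse had 14.5 CPM of Thbs1 and mouse 1 had 3.55 CPM. Against CCl4 + siLuc-LNP, 0 activation and 0 target genes passed in CCl4 + siHAS2-LNP, and the medians were -0.47 and -1.20. Each of the other 5 pathway lists had at most 1 call in a direction in these 3 comparisons.

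**Figure D5:**
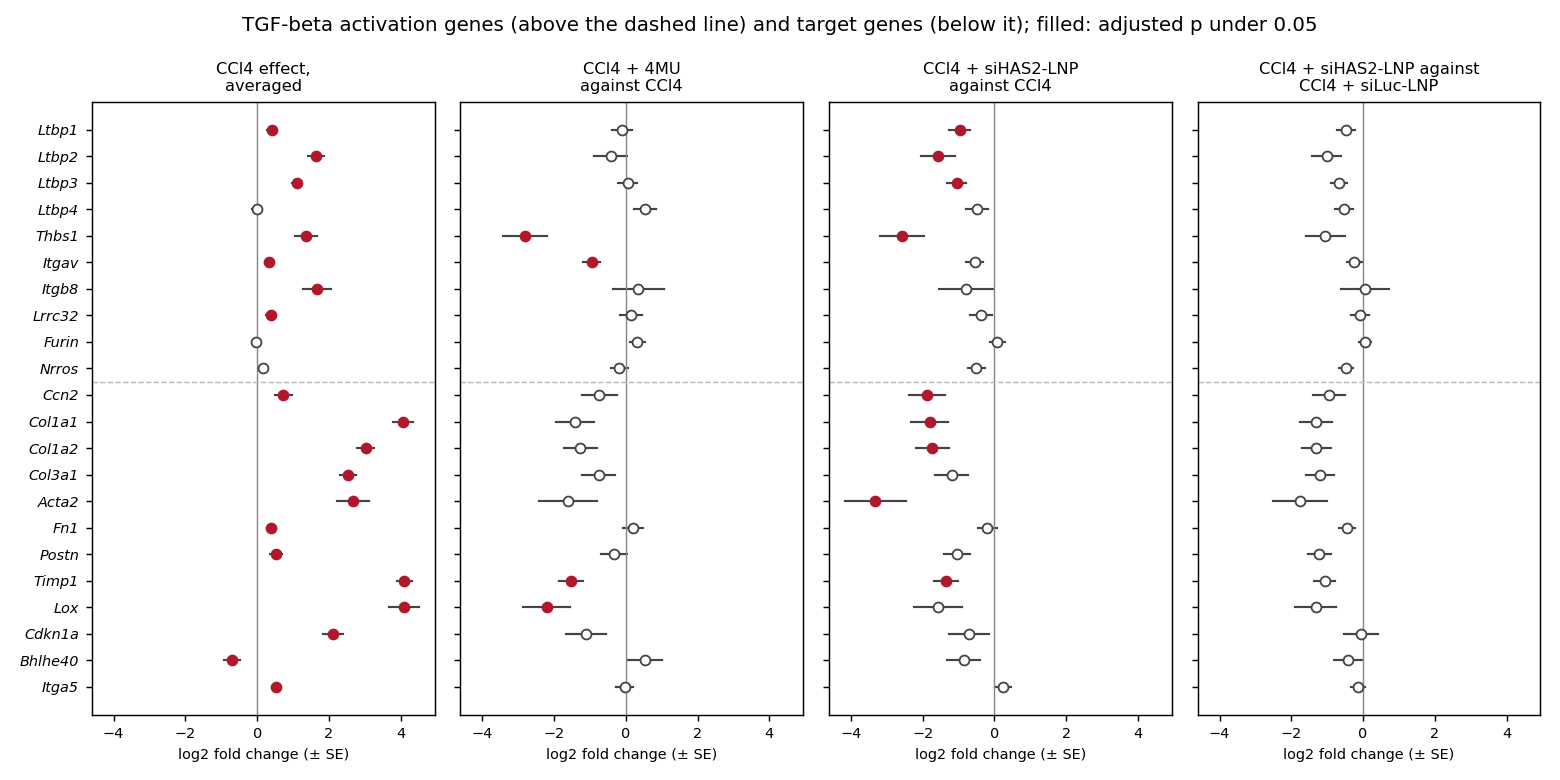
Log2 fold change (x axis, with SE as lines) of genes for TGF-beta activation (above the dashed line) and of TGF-beta target genes (below it) in 4 comparisons, with filled points for an adjusted p under 0.05. The averaged CCl4 effect has 7 filled activation genes of 10 and all 12 drawn target genes filled, and CCl4 + siHAS2-LNP against CCl4 has 4 and 5.

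Markers of the cells that make or receive these signals moved with CCl4 too, beside 51.9% of all genes called. On average 8 of 9 markers of infiltrating monocytes and macrophages rose, 7 of 9 of portal fibroblasts and mesothelium rose and 1 fell, and 4 of 4 tested bile duct markers rose. Of 6 Kupffer cell markers 4 fell, of 6 hepatocyte markers 4 fell and of 3 tested platelet markers 2 fell. Stellate cell markers went both ways, with 2 of 10 higher and 4 lower, as did endothelial markers with 3 of 7 higher and 1 lower, and 1 of 5 lymphocyte markers fell. The summed level of the infiltrating macrophage markers was 65.3 to 284 CPM in mice given CCl4 and 12.0 to 57.4 CPM in the others. Their part in the changes of Tgfb1, Pdgfb or Tgfbr2 was not tested.

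The libraries of the 14 mice given CCl4 came from all 4 treatments and differed in depth. The part of either in a correlation was not tested. Across these mice, the genes with the most similar course were named by Pearson's r of log2 CPM, as a description only. For Tgfb1 they were Parvb (r = 0.93), Ackr1 (0.93) and Nkd1 (0.91), with r of 0.74, -0.05 and 0.07 over the 13 other mice. For Tgfb2 they were Cep290 (0.94), Tmem165 (0.94) and Ccdc18 (0.92), and for Tgfb3 Jazf1 (0.86), Fads2 (0.82) and Xxylt1 (0.81). Over the 13 other mice, r was 0.50, -0.14 and 0.13 for Tgfb2 and 0.04, 0.41 and 0.31 for Tgfb3. For Tgfbr1 they were Ptprc (0.94), Hgf (0.93) and Wipf1 (0.93), and for Tgfbr2 Plpp1 (0.91), Cttnbp2nl (0.90) and Setbp1 (0.90). In the other mice, r was -0.22, 0.67 and -0.16 for Tgfbr1 and 0.27, 0.36 and 0.14 for Tgfbr2. For Pdgfra they were Frzb (0.96), Lhfpl6 (0.93) and Nes (0.92), with r of 0.25, 0.67 and 0.68 over the other mice. For Pdgfrb they were Lbh (0.89), Selenon (0.87) and Fkbp10 (0.87), with 0.49, 0.34 and 0.56 over the other mice. For Pdgfa they were Bex4 (0.88), Scd2 (0.81) and Krt8 (0.81), with 0.62, 0.23 and -0.05 over the other mice. For Pdgfb they were Syk (0.85), Scube1 (0.82) and Evl (0.81), with 0.58, 0.22 and 0.50. For Tgfbi they were Gm10275 (0.90), Nsa2 (0.88) and Cd79b (0.83), with 0.30, 0.05 and 0.30. Of the 10 genes themselves, the pairs with the highest r in mice given CCl4 were Tgfb2 with Tgfbr1 (0.81), Tgfb1 with Pdgfrb (0.79) and Tgfb1 with Tgfbr2 (0.76), and over the 13 other mice the same pairs had 0.06, 0.35 and 0.43.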

How the data were processed

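The table deposited by the authors holds whole-number counts for each gene in each mouse. The authors trimmed reads with Trimmomatic 0.39, aligned them to GRCm39 with HISAT2 and counted them with featureCounts. Neither a HISAT2 version nor strand handling is given in the sources used here, so reads from overlapping genes on opposite strands cannot be told apart. Symbols and exon lengths came from GENCODE vM39 (GRCm39), which held 54749 of 55414 identifiers.

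The 14114 genes that averaged 10 counts or more were normalised by TMM and tested in 1 fit of all 8 groups with edgeR 4.0.16 (quasi-likelihood test, Benjamini-Hochberg adjustment at 0.05, R 4.3.3). The study used DESeq2, which served as an alternative (1.42.0), with other alternatives being DESeq2 size factors within edgeR, all genes kept, a replicate block, only the compared groups, and each mouse left out. CPM used TMM-scaled totals, ratios a pseudocount of 0.5 counts. The fit was tested on simulated data. Of each list, the called genes with the largest fold changes were named, at most 3 per direction, and 1 target gene is counted but not reported here by name or drawn. Similar genes were the 3 with the highest r. The 10 genes, the lists and the tests were chosen with earlier results of these data known, and the canonical length and the list counts with mice left out were added after seeing the data.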

Additional observations from a re-analysis of the deposited data

Results flagged for a closer look

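Dixon's gap test was run on 40 sets of 4 mice, each set being a gene in a group. In 3 of the 40 sets a value stood apart, which chance alone does for about 5% of sets. Tgfb1 in CCl4 + 4MU mouse 2 was the lowest of its group at 10.6 CPM, with the other 3 mice between 11.8 and 11.9 CPM. Tgfb2 in CCl4 + 4MU mouse 4 was the lowest at 0.214 CPM, with the others between 0.591 and 0.645 CPM. Tgfbr1 in control mouse 4 was the highest at 23.2 CPM, with the others between 16.1 and 17.2 CPM.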

How the results depend on the processing

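The 19 counts and ratios were recomputed 346 times and kept their direction and side of the threshold, or stayed within 1.5 times, in 294. The 91 single-gene values were recomputed 1172 times and kept both in 1052. The largest shift of the median log2 fold change of all genes under an alternative was 0.0708. With DESeq2, the number of genes called was 1 for CCl4 + 4MU against CCl4, 2 for CCl4 + siHAS2-LNP against CCl4 + siLuc-LNP and 1 for the 4MU interaction. With no low-count filter it was 2 for the CCl4 effect within siLuc-LNP, 0 within siHAS2-LNP, 2 for CCl4 + siHAS2-LNP against CCl4 + siLuc-LNP, 1 for the 4MU interaction and 1 for the siHAS2-LNP interaction, and Pdgfrb within siHAS2-LNP turned to -0.0048. With only the compared groups it was 1 within siLuc-LNP, and 0 within siHAS2-LNP, for CCl4 + siHAS2-LNP against CCl4 + siLuc-LNP and for siLuc-LNP against control. The causes were not tested.

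Replicate numbers showed no sign of pairing the mice, though so few mice per group cannot exclude it. Over 83 same-numbered pairs the correlation of deviations ran from -0.309 to 0.256 (median -0.02), with 17 over 0.1. Over 234 pairs with other numbers it ran from -0.432 to 0.432 (median -0.008), with 59 over 0.1. With a replicate block the number of genes called was 6 for CCl4 against control, 4 within 4MU, 2 within siLuc-LNP, 0 within siHAS2-LNP, 7 averaged, 3 for CCl4 + siHAS2-LNP against CCl4, and 0 for CCl4 + siHAS2-LNP against CCl4 + siLuc-LNP and for siLuc-LNP against control. The Tgfb3 to Tgfb1 ratio was then at 1.01 (adjusted exact permutation p = 0.0586), Pdgfra to Pdgfrb turned to -0.021, and Tgfbi in CCl4 + siHAS2-LNP against CCl4 turned to 0.0029.

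With each mouse left out, the number of genes called ranged from 3 to 7 for CCl4 against control, 2 to 5 within 4MU, 2 to 5 within siLuc-LNP, 0 to 2 within siHAS2-LNP, 0 to 1 for CCl4 + 4MU against CCl4, 0 to 3 for CCl4 + siHAS2-LNP against CCl4, and 0 to 1 for CCl4 + siHAS2-LNP against CCl4 + siLuc-LNP, siLuc-LNP against control and the 4MU interaction. Pdgfb to Pdgfa ranged from 0.30 to 0.51 and passed in 2 of these, and Pdgfra to Pdgfrb from -0.0017 to 0.14. Signs turned for Pdgfra within 4MU (-0.19 to 0.25), Pdgfb (-0.32 to 0.10) and Pdgfrb (-0.074 to 0.14) within siHAS2-LNP, the averaged Tgfbi (-0.026 to 0.061), Tgfb3 (-1.19 to 0.41) and Pdgfrb (-0.60 to 0.33) in CCl4 + 4MU against CCl4, Tgfb3 (-1.52 to 0.066), Tgfbi (-0.090 to 0.11) and Pdgfa (-0.40 to 0.0056) in CCl4 + siHAS2-LNP against CCl4, and Pdgfb in siHAS2-LNP against siLuc-LNP (-0.014 to 0.48). None of these genes had passed the test there. Depth limits Tgfb2 and Tgfb3 most, and 2 CCl4 mice limit each comparison with that group.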
